A study of Mus musculus with 21 samples.

Results

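Immediate early genes are genes whose transcription starts within minutes of a stimulus without new protein synthesis, and activity-regulated genes are those that synaptic activity switches on in neurons. Here 37 of them were followed in bulk RNA of the mouse hippocampus, chosen by name from a list of early transcription factors, brakes on their signalling and secreted or synaptic effectors. All 37 were among the 24411 genes of the deposited tables, and all 37 passed the filter on low values in both experiments (a mean normalized count of at least 10). In the transfer experiment, B6.SJL-Ptprca Pepcb/BoyJ males aged 4 months were injected in the tail vein with CD8+ T cells of C57BL/6J mice. The cells came from donors of 22 to 28 months for the 5 aged T recipients and from donors of 3 to 4 months for the 6 young T recipients, below also called aged T and young T mice after their donors. Both of these groups had received the CD8a antibody on days -11 and -7, given to remove their own CD8+ T cells. In the depletion experiment, males of 22 to 24 months were given injections every 4 days until they were killed, 5 of them with the CD8a antibody and 5 with rat IgG2b as its isotype control. All mice were labelled wild type, were perfused under ketamine and xylazine, and gave the hippocampus of 1 hemisphere. Each experiment was tested alone.

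In neurons, calcium entry through synaptic receptors and channels activates kinases that phosphorylate CREB and the SRF partners already sitting on these promoters, and Fos, the Egr genes, the Nr4a genes, Npas4 and Arc are transcribed. Their proteins then drive a later wave that includes Bdnf and Nptx2, while phosphatases such as Dusp1 switch the kinases off again. In the hippocampus these genes are used as marks of recently active neurons, and their RNA is short-lived, so the level in a tissue sample reflects the last period before death.

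Part of the signal arrives at the sequence just before the start site. The promoter windows of Fos, of 3 members whose correlations with it are given below and of Fosl2 are therefore shown. Capitals mark TGACG on either strand (written CGTCA on the other), the half-site of the cAMP response element that CREB binds. Each window runs from 250 bases before to 50 bases after the annotated start, 5′ to 3′ on the gene's own strand, from RefSeq (GRCm38.p6).
Fos, chr12:85473640-85473939, plus strand: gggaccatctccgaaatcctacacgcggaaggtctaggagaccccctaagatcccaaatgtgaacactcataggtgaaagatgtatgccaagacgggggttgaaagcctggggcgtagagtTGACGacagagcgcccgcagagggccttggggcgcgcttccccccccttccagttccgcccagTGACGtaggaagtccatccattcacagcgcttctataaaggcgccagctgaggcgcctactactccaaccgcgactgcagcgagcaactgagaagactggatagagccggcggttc
Dusp1, chr17:26508423-26508722, minus strand: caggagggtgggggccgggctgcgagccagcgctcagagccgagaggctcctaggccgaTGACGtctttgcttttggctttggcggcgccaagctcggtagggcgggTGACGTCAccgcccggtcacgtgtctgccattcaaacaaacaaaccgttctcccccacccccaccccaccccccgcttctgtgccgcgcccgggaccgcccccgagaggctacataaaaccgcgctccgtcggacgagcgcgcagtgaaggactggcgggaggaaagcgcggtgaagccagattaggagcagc
Nr4a1, chr15:101266596-101266895, plus strand: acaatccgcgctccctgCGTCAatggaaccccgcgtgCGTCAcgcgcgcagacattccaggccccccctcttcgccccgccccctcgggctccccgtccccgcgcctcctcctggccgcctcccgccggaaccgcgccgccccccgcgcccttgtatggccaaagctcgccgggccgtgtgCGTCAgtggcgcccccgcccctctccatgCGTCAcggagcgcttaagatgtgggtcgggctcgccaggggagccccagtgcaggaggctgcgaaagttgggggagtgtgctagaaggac
Junb, chr8:84978699-84978998, minus strand: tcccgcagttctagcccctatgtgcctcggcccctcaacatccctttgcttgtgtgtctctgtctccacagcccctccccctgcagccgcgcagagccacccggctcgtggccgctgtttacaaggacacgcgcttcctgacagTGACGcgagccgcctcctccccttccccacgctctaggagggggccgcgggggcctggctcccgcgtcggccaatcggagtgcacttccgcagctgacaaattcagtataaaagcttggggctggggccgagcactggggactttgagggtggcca
Fosl2, chr5:32136222-32136521, plus strand: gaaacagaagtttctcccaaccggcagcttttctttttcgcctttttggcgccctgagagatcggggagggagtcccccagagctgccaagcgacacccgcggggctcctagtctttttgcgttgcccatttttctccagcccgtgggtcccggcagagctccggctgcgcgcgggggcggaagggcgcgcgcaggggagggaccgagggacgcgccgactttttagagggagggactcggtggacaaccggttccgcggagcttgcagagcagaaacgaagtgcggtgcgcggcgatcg

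The Fos window held 2 half-sites, the nearer one 66 bases before the start. The Dusp1 window held a whole response element, TGACGTCA, 143 bases before the start, and a further half-site, and the Nr4a1 window held 4 half-sites. The Fosl2 window held none. Windows were at hand for 26 of the 37 members, 39 windows in all because some genes have several starts. TGACG on either strand was present in 21 of these 39 windows (53.8%), against 20.8% of 32851 windows of the same length over all genes. Counted by gene, 18 of the 26 members (69.2%) had it in at least 1 window, against 23.0% of all genes. Members had more windows per gene (39 for 26) than all genes (32851 for 27025), which favours a match by gene. The windows of all genes were not matched to those of the members for base content. The whole element TGACGTCA, which contains the half-site on both strands, was in 3 windows (7.69%), those of Btg2, Dusp1 and Maff, against 1.79% of all windows. The CArG box that SRF binds was found in 5 windows (12.8%), all of Dusp5 and Egr2, against 1.63%. By gene this was 2 of the 26 members (7.69%), against 1.81% of all genes. The AP-1 site TGANTCA was in 1 window (2.56%), of Bdnf, against 7.81%. These are matches of letters and not measured sites. Sequence outside the windows was not searched, so a site absent from a window may lie elsewhere at the gene. The 11 members without a window, Egr1 and Arc among them, were not searched at all.

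The libraries held 12361933 to 15055422 reads in aged T recipients, 11232442 to 14911138 in young T recipients, 9957822 to 12136146 in antibody-treated mice and 11103024 to 14375029 in IgG2b mice. Excitatory neuron markers, which are not particular to the hippocampus, summed to 68599 or above in every library. The 5 neocortex markers summed to between 1436 and 3421, and the 4 T cell markers to at most 14.5 normalized counts in any library. In bulk tissue, fewer cells of a type and less RNA per cell cannot be told apart. Members averaged between 18.3 normalized counts (Maff) and 3304 (Nrn1) over the transfer libraries, so each mean lay well above the limit of 3 reads that a count of 0 allows. Single libraries came closer to it. Maff had 7 reads (6.24 normalized counts) in aged T replicate 2 and 8.91 normalized counts at the lowest with the CD8a antibody. The labels do not say how the mice were housed or handled before death. Replicate numbers name separate samples only and pair nothing between groups.

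Young mice that received aged T cells had activity-regulated genes at levels that overlapped those of mice given young T cells for every one of the 37 members. None passed limma at a Benjamini-Hochberg adjusted p under 0.05, where 0% of the 14162 genes tested did, and the smallest adjusted p of a member was 0.600. None had an unadjusted p under 0.05 either, against 8.25% of all genes (1169), and groups did not overlap for 0.699% of genes. edgeR's quasi-likelihood test and DESeq2 on the recovered reads also called 0 members. The estimates lay lower in aged T recipients for 28 of the 37 members (75.7%), against 51.0% of all genes, with a median log2 difference of -0.14 against -0.0045 over all genes. The differences ran from -0.54 (Cyr61) to 0.25 (Gadd45g). Cyr61, a matricellular protein gene, rested on single mice, with an estimate of -0.92 without aged T replicate 1, -0.36 without aged T replicate 5 and -0.33 with DESeq2, where Klf4 had the lowest (-0.54). For 33 of the 37 the 95% interval lay within 1 log2 unit of 0, as it did for 12882 of the 14162 genes. The median stayed between -0.21 and -0.08 when each library was left out in turn, with the lower end reached without young T replicate 3, a library described further below.

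**Figure D1:**
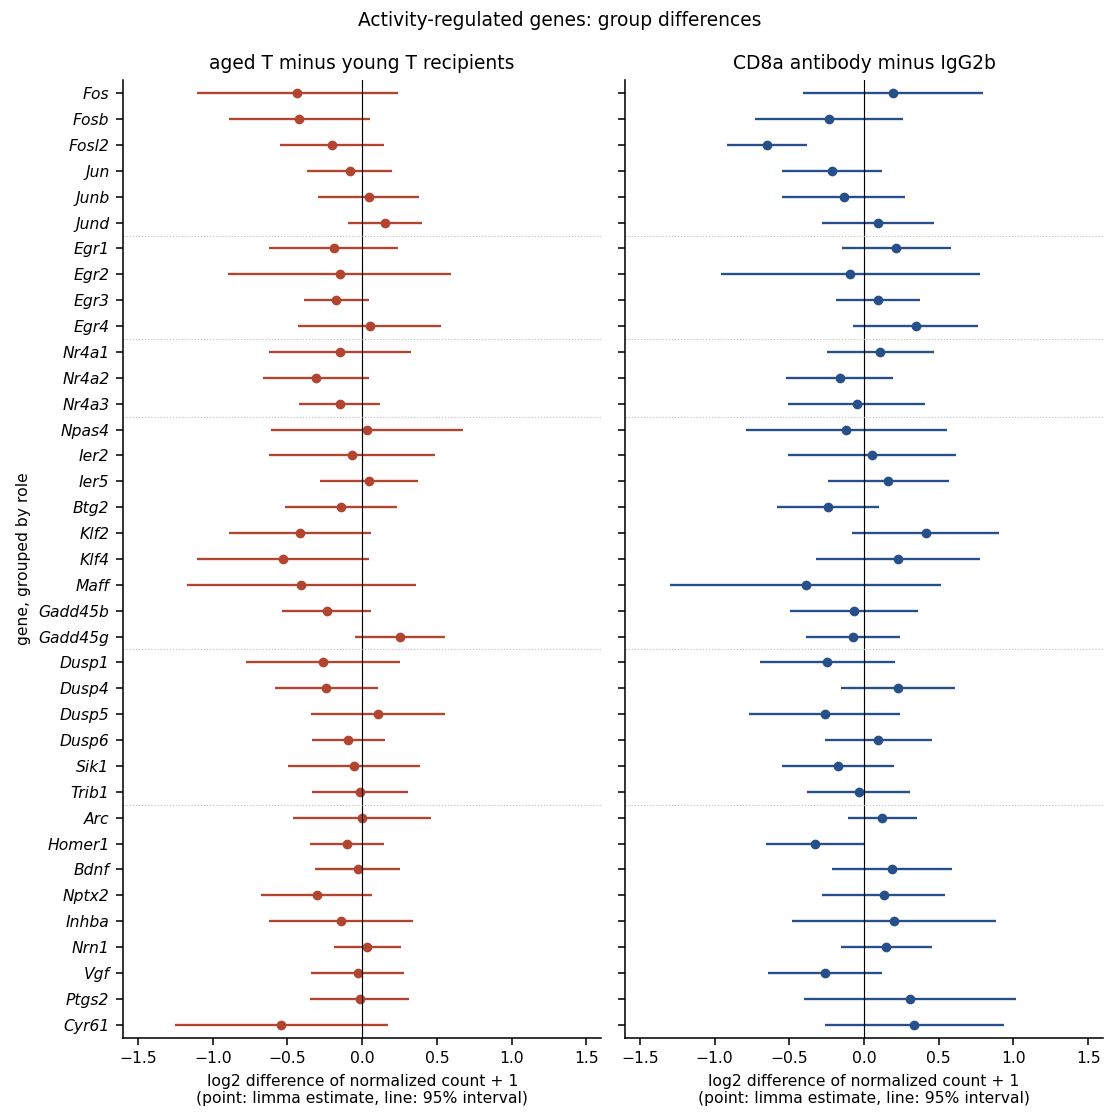
Log2 differences of 37 activity-regulated genes, aged T minus young T recipients (left, n = 5 and 6) and CD8a antibody minus IgG2b (right, n = 5 each); points are limma estimates on log2(normalized count + 1), lines their 95% intervals, dotted lines separate the role groups. On the left all 37 intervals cross 0 and 28 points lie below it; on the right the interval of Fosl2 lies wholly below 0, at -0.65, and that of Homer1 ends just below 0.

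Among the AP-1 subunits, the Fos and Jun proteins that pair to bind the AP-1 site, 4 of 6 estimates were lower in aged T recipients, with a median of -0.14. Fos had 443, 448, 163, 119 and 134 normalized counts in aged T recipients, against 234 at the lowest, 288 at the median and 387 at the highest in young T recipients. The aged T mice fell into a high pair, replicates 1 and 2, above every young T mouse, and a low trio below every young T mouse. The means were therefore 262 ± 169 in aged T mice and 302 ± 57.2 in young T mice (SD, n = 5 and 6), and the log2 difference was -0.43 (SE 0.32, limma adjusted p = 0.698). It was -0.69 without aged T replicate 2, -0.21 without aged T replicate 4, and -0.21 with DESeq2 and -0.20 with edgeR. Fosb, a partner that accumulates with repeated stimulation, had 122, 135, 111, 116 and 62.5 counts in aged T recipients, against 79.1, 158 and 171 at the lowest, median and highest in young T recipients. The other 5 young T mice lay at 149 or above, over every aged T mouse, and the groups overlapped through young T replicate 3 at 79.1 (log2 difference -0.42, SE 0.22, limma adjusted p = 0.608). Junb, which pairs with Fos and often restrains Jun, had 920, 1193, 808, 886 and 768 counts in aged T recipients, against 643, 870 and 1208 in young T recipients at the lowest, median and highest. Its groups lay over each other (log2 difference 0.04, SE 0.16).

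The EGR zinc-finger factors and the NR4A orphan receptors are direct early targets of the same kinases, and 3 of 4 and 3 of 3 had lower estimates in aged T recipients, with medians of -0.16 and -0.15. Egr1 had 1462, 1831, 1370, 1401 and 1308 counts in aged T recipients, against 902, 1854 and 2291 at the lowest, median and highest in young T recipients. The young T mice spanned the whole aged T range on both sides (log2 difference -0.19, SE 0.20, limma adjusted p = 0.795). Nr4a1 had 966, 917, 725, 733 and 574 counts in aged T recipients, against 510, 846 and 1425 in young T recipients. Nr4a2 averaged 606 ± 114 counts in aged T mice and 761 ± 196 in young T mice (log2 difference -0.31, SE 0.17, limma adjusted p = 0.613).

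Of the 9 other early regulators, 6 had lower estimates in aged T recipients. Npas4, a factor that in neurons responds to depolarisation and calcium entry, had 70.0, 195, 92.3, 84.2 and 121 counts in aged T recipients, against 57.6, 106 and 194 at the lowest, median and highest in young T recipients. In each group 1 mouse stood far above the rest, and the means were close (113 ± 49.8 and 111 ± 49.2, log2 difference 0.03). The zinc-finger factors Klf4 and Klf2, which outside neurons are also known as flow-induced factors of the vessel lining, were among the members with the smallest p. Klf4 averaged 69.2 ± 27.1 counts in aged T mice and 100.4 ± 40.2 in young T mice (log2 difference -0.53, SE 0.27, limma adjusted p = 0.600), and Klf2 112 ± 40.0 and 148 ± 45.3 (-0.42, SE 0.22, adjusted p = 0.613). Markers of the vessel wall moved the same way: 5 of 5 mural and smooth muscle markers had lower estimates, 3 of them with an unadjusted limma p under 0.05 and none past the adjusted threshold, and their sum ran from 960 to 1823 in aged T mice and from 1241 to 2561 in young T mice. Of the endothelial markers 5 of 7 were lower, with sums of 1854 to 2647 in aged T mice and 1885 to 3769 in young T mice. Whether vessel content has a part in the Klf values was not tested. Gadd45g, a stress and growth arrest gene, averaged 241 ± 49.3 counts in aged T mice and 201 ± 28.4 in young T mice, the highest positive estimate of the members (0.25, SE 0.14, limma adjusted p = 0.621).

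The 6 signalling brakes, 4 dual-specificity phosphatases of the MAP kinases with the kinase Sik1 and the pseudokinase Trib1, had 5 lower estimates and a median of -0.07. Dusp1 averaged 347 ± 124 counts in aged T mice and 416 ± 150 in young T mice. Among the 9 secreted and synaptic effectors 7 estimates were lower, with a median of -0.03. Arc, which carries AMPA receptors away from synapses, had 1259, 2216, 2087, 1207 and 1135 counts in aged T recipients, against 1173, 1359 and 2396 at the lowest, median and highest in young T recipients. In each group 2 mice stood well above the others, and the log2 difference was 0.00 (SE 0.22). Bdnf, the neurotrophin released at active synapses, had 727, 667, 724, 789 and 886 counts in aged T recipients, against 588, 772 and 1028 in young T recipients, again with overlapping groups (-0.03, SE 0.13). Nptx2, a pentraxin that clusters AMPA receptors on interneurons, averaged 390 ± 111 counts in aged T mice and 475 ± 90.0 in young T mice (-0.31, SE 0.18, limma adjusted p = 0.630).

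**Figure D2:**
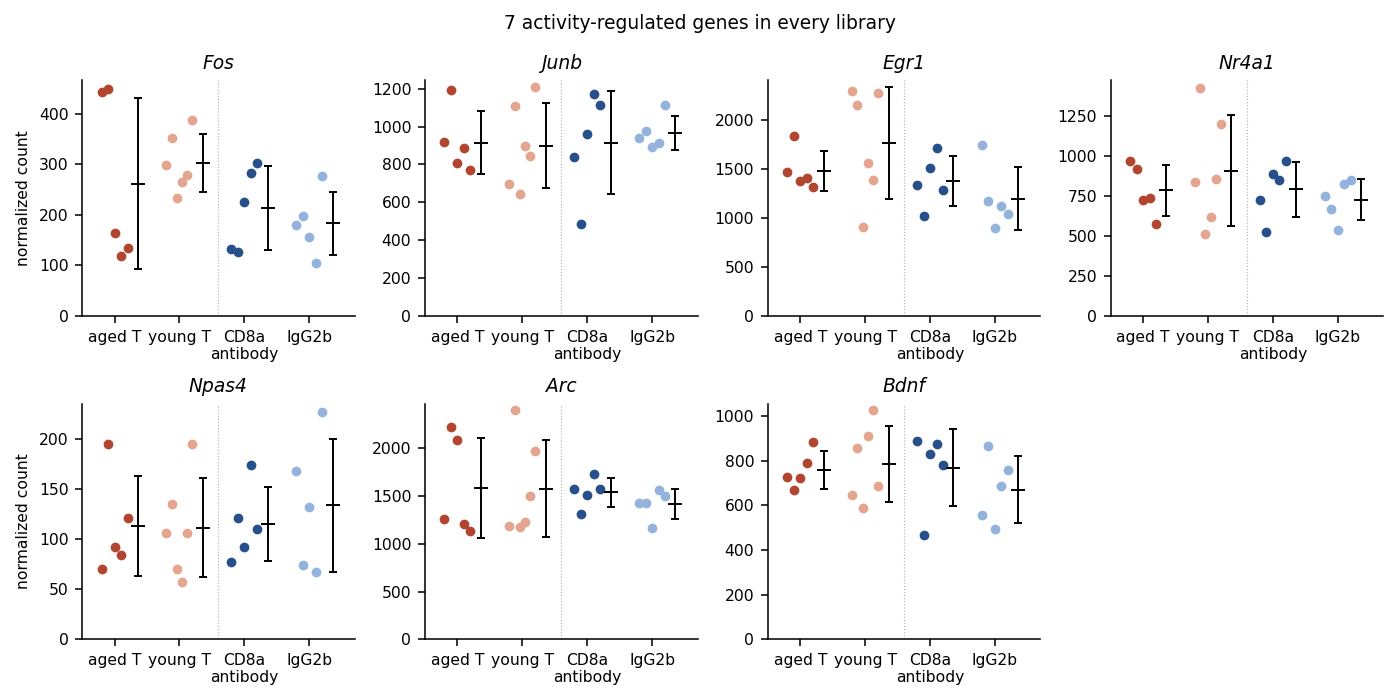
Normalized counts of 7 activity-regulated genes in every library; points are single mice in replicate order, bars the mean ± SD beside each group (aged T n = 5, young T n = 6, CD8a antibody n = 5, IgG2b n = 5), and the dotted line separates the experiments, whose normalized counts were scaled separately. Fos in aged T recipients splits into 2 mice at 443 and 448 and 3 between 119 and 163, and the groups overlap in every panel.

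In aged mice, depletion with the CD8a antibody left 36 of the 37 members with groups that overlapped, and Fosl2 was the exception. Fosl2, an AP-1 subunit of the Fos family, had 448, 594, 572, 570 and 435 counts with the CD8a antibody, against 917, 698, 768, 785 and 927 with IgG2b. Every antibody-treated mouse lay below every control, and the means were 524 ± 75.7 and 819 ± 99.7 (SD, n = 5 each). The log2 difference was -0.65 (SE 0.12, 95% interval -0.91 to -0.38), the 12th smallest p of 13939 genes. It did not pass limma over all genes (unadjusted p = 0.000127, adjusted p = 0.148) or edgeR (adjusted p = 0.172, 0.00719% of genes called), and it passed DESeq2 on the recovered reads (adjusted p = 0.00154). In the authors' deposited table its log2 fold change was 0.645, signed there as IgG2b over antibody, with an adjusted p of 0.00159. Limma called 0.00717% of all genes (1 gene, not a member) and DESeq2 0.501% (91 of 18175). Groups did not overlap for 286 of the 13939 genes in either direction, and with the antibody lower for 177 (1.27%). The count of 1 member without overlap among 37 is near the share of all genes in either direction.

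Leaving out each library in turn kept the Fosl2 estimate between -0.70 and -0.58 with limma adjusted p between 0.0517 and 0.467. In a check chosen after seeing the data, DESeq2 called Fosl2 with each of the 10 libraries left out (adjusted p between 0.000509 and 0.0241). Regional markers moved with the groups. The 3 ventral hippocampus markers (Trhr, Coch and Nr2f2) summed to between 249 and 714 counts with the antibody and between 587 and 980 with IgG2b, with 3 of 3 estimates lower. The Coch estimate was near 0 (-0.0049), against -1.22 for Trhr and -0.997 for Nr2f2. The 3 dorsal markers (Wfs1, Lct and Iyd) summed to between 1525 and 2733 with the antibody and 1281 and 2180 with IgG2b. Of these 3 of 3 were higher, and only Lct had an unadjusted limma p under 0.05. Dentate granule markers were higher for 5 of 5 genes (sums of 3537 to 5575 with the antibody and 2854 to 4218 with IgG2b), 3 of them at an unadjusted limma p under 0.05, and interneuron markers lower for 4 of 6 (7752 to 11531 and 11264 to 12570). Lct is in both the dorsal and the dentate list, so these 2 counts are not separate. The dentate marker Calb1 was higher by 0.0023 only. Other lists moved with the groups too. Oligodendrocyte, microglia and CA3 pyramidal markers were higher with the antibody for 4 of 4 genes each, and choroid plexus markers for 5 of 5. At an unadjusted limma p under 0.05 there were 2 oligodendrocyte markers and 1 microglia marker among them. A covariate, the difference of the ventral and dorsal scores, was added to the fit, also chosen after seeing the data. The Fosl2 log2 difference was then -0.49 (limma adjusted p = 0.337). The part of dentate granule, interneuron or other cell content in the Fosl2 value was not tested. In young recipients, Fosl2 had 808, 519, 630, 717 and 366 counts with aged T cells, against 587, 658 and 811 at the lowest, median and highest with young T cells. These groups overlapped (log2 difference -0.20, SE 0.16, limma adjusted p = 0.721), with an estimate of -0.032 without aged T replicate 5 and -0.32 without aged T replicate 1, and whether the 2 experiments differ for Fosl2 was not tested.

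**Figure D3:**
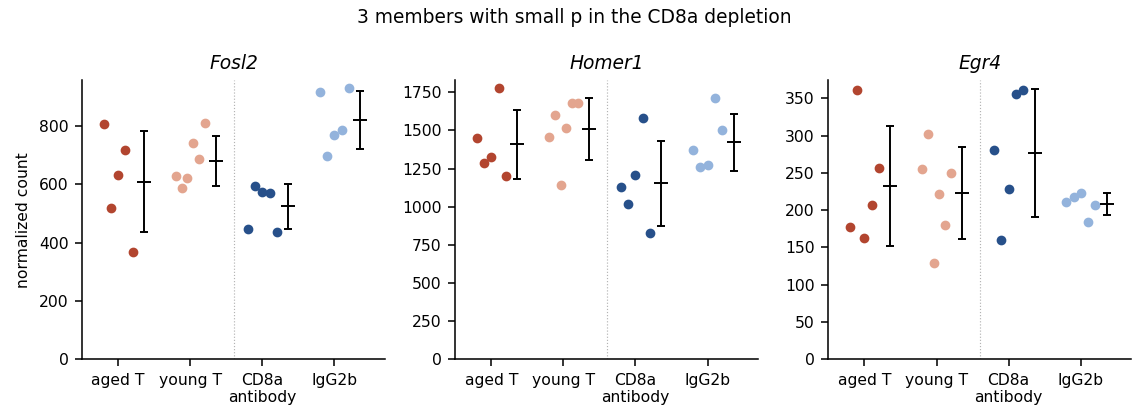
Normalized counts of Fosl2, Homer1 and Egr4 in every library, with points for single mice and bars for the mean ± SD of each group (n = 5, 6, 5 and 5). Fosl2 with the CD8a antibody stays at or below 594 in all 5 mice while all 5 IgG2b mice are at 698 or above; Homer1 and Egr4 overlap between these groups.

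Over all members the depletion estimates had no common direction: 18 were lower and 19 higher with the antibody, with a median log2 difference of 0.05 against -0.002 over all genes. The median turned to -0.06 without antibody replicate 5, to -0.00087 without IgG2b replicate 1 and to -0.10 with the regional covariate, and was highest, 0.13, without antibody replicate 2. Limma gave 2 of the 37 members, Fosl2 and Homer1, an unadjusted p under 0.05, both lower. Of all genes 8.47% (1180) reached that p in either direction, and 4.15% (579) were lower at it. Homer1 is the scaffold of group 1 metabotropic glutamate receptors, with a short activity-induced form that gene-level counts do not separate. It had 1132, 1016, 1205, 1583 and 828 counts with the antibody, against 1371, 1261, 1273, 1709 and 1500 with IgG2b. Antibody replicate 4 at 1583 lay among the controls, and the log2 difference was -0.33 (SE 0.15, limma adjusted p = 0.589). A pair of genes known only by model numbers overlap Homer1 on its strand. How shared reads were assigned is not stated in the sources used here.

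The other 5 AP-1 subunits overlapped between the groups. Fos had 132, 126, 225, 283 and 302 counts with the antibody, against 180, 197, 156, 106 and 277 with IgG2b. Mice of both groups were spread over the same range (log2 difference 0.19, SE 0.28). Junb had 841, 488, 963, 1174 and 1112 counts with the antibody, against 939, 974, 892, 911 and 1115 with IgG2b. The low value belonged to antibody replicate 2, and the log2 difference was -0.14 (SE 0.19).

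Of the 4 EGR factors 3 had higher estimates with the antibody, with a median of 0.15. With the regional covariate 2 of the 4 were higher (median -0.01), and Egr3 turned to -0.069. Egr4 had 280, 159, 228, 355 and 361 counts with the antibody, against 211, 217, 223, 184 and 207 with IgG2b. Antibody replicates 1, 3, 4 and 5 lay above every control and replicate 2 below every control (log2 difference 0.35, SE 0.19, limma adjusted p = 0.669). Without antibody replicate 2 the Egr4 estimate was 0.53, and DESeq2 then called Egr4 beside Fosl2, 2 members of 141 genes called. Egr1 had 1338, 1023, 1505, 1714 and 1285 counts with the antibody, against 1739, 1175, 899, 1122 and 1037 with IgG2b. The groups overlapped (0.22, SE 0.17). Nr4a1 had 722, 525, 885, 849 and 969 counts with the antibody, against 749, 668, 538, 825 and 848 with IgG2b, a log2 difference of 0.11 (SE 0.17) that turned to -0.045 with the regional covariate. Npas4 had 76.7, 121, 92.5, 174 and 110 counts with the antibody, against 167, 74.3, 132, 67.1 and 226 with IgG2b, a wide spread in both groups (-0.12, SE 0.31, and 0.32 with the regional covariate).

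Klf2 had 71.9, 95.8, 84.3, 98.3 and 149 counts with the antibody, against 51.8, 90.1, 92.9, 54.5 and 84.8 with IgG2b. Antibody replicate 5 was the highest and the groups overlapped (0.41, SE 0.23, limma adjusted p = 0.668). Of the endothelial markers 6 of 7 had higher estimates, with sums of 1592 to 2372 with the antibody and 1515 to 1752 with IgG2b. Of the mural and smooth muscle markers 4 of 5 had higher estimates, 3 of them at an unadjusted limma p under 0.05 and 1 past DESeq2's adjusted threshold, with sums of 709 to 1393 with the antibody and 651 to 868 with IgG2b. The part of either list in the Klf2 value was not tested. Btg2, an antiproliferative early gene, averaged 219 ± 44.6 counts with the antibody and 257 ± 42.0 with IgG2b (-0.24, SE 0.16). Arc had 1575, 1310, 1511, 1731 and 1569 counts with the antibody, against 1429, 1425, 1162, 1566 and 1499 with IgG2b. It had the narrowest within-group spread of the members in this experiment, and its interval of -0.11 to 0.35 bounds the difference. Bdnf had 886, 469, 830, 876 and 783 counts with the antibody, against 557, 864, 492, 685 and 757 with IgG2b, with overlap (0.19, SE 0.19, and -0.16 with the regional covariate). Of the 9 effectors 7 had higher estimates with the antibody, and Homer1 and Vgf were the 2 lower ones. With the regional covariate 2 of the 9 were higher, Cyr61 and Inhba, and Arc (-0.0029), Bdnf, Nptx2 (-0.16), Ptgs2 (-0.23) and Nrn1 (-0.11) turned. Vgf, the precursor of secreted neuropeptides, averaged 2806 ± 762 counts with the antibody and 3289 ± 502 with IgG2b (-0.26, SE 0.18, limma adjusted p = 0.719).

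Members varied widely between mice of 1 group. The pooled within-group SD of a member was 0.331 log2 units at the median in the transfer libraries, against 0.218 over all genes tested, and 0.357 against 0.257 in the depletion libraries. In each experiment 31 of the 37 members lay above the median of all genes. The spread ran from 0.177 (Egr3) to 0.690 (Cyr61) in the transfer and from 0.156 (Arc) to 0.764 (Maff) in the depletion.

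A few mice were low or high for most members at once. Young T replicate 3 lay below its group mean for 35 of the 37 members and was the lowest of its group for 22 of them (59.5%), against 24.5% of all genes. CD8a antibody replicate 2 lay below for 31 and was the lowest for 23 (62.2%), against 26.7% of all genes. In the other direction, young T replicate 2 lay above its group mean for 32 members, antibody replicate 4 for 31 and IgG2b replicate 5 for 29. Markers of cell types differed in the low libraries too. Young T replicate 3 and antibody replicate 2 had the highest astrocyte sums of their groups (43230 and 41933), the lowest interneuron sums (8311 and 7752) and the lowest CA1 pyramidal sums (4781 and 3425). Aged T replicate 3 had the same 3 extremes in its group (43600, 9503 and 4525). It lay above its group mean for 13 of the 37 members, with a median deviation of -0.07. It was the highest of its group for 2 members (5.41%, against 24.1% of all genes) and the lowest for 7 (18.9%, against 21.6%). Excitatory neuron sums were not low in these libraries. They were 104810 in antibody replicate 2 and 130324 in aged T replicate 3, the highest of their groups. In young T replicate 3 the excitatory sum was 115745, within a group range of 90641 to 120032. Whether tissue composition has a part in the member values of these libraries was not tested. Antibody replicate 5 stood apart on the first principal component of all genes (57.3, against -28.2 to -9.97 for the other antibody libraries) and lay above its group mean for 24 of the members.

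**Figure D4:**
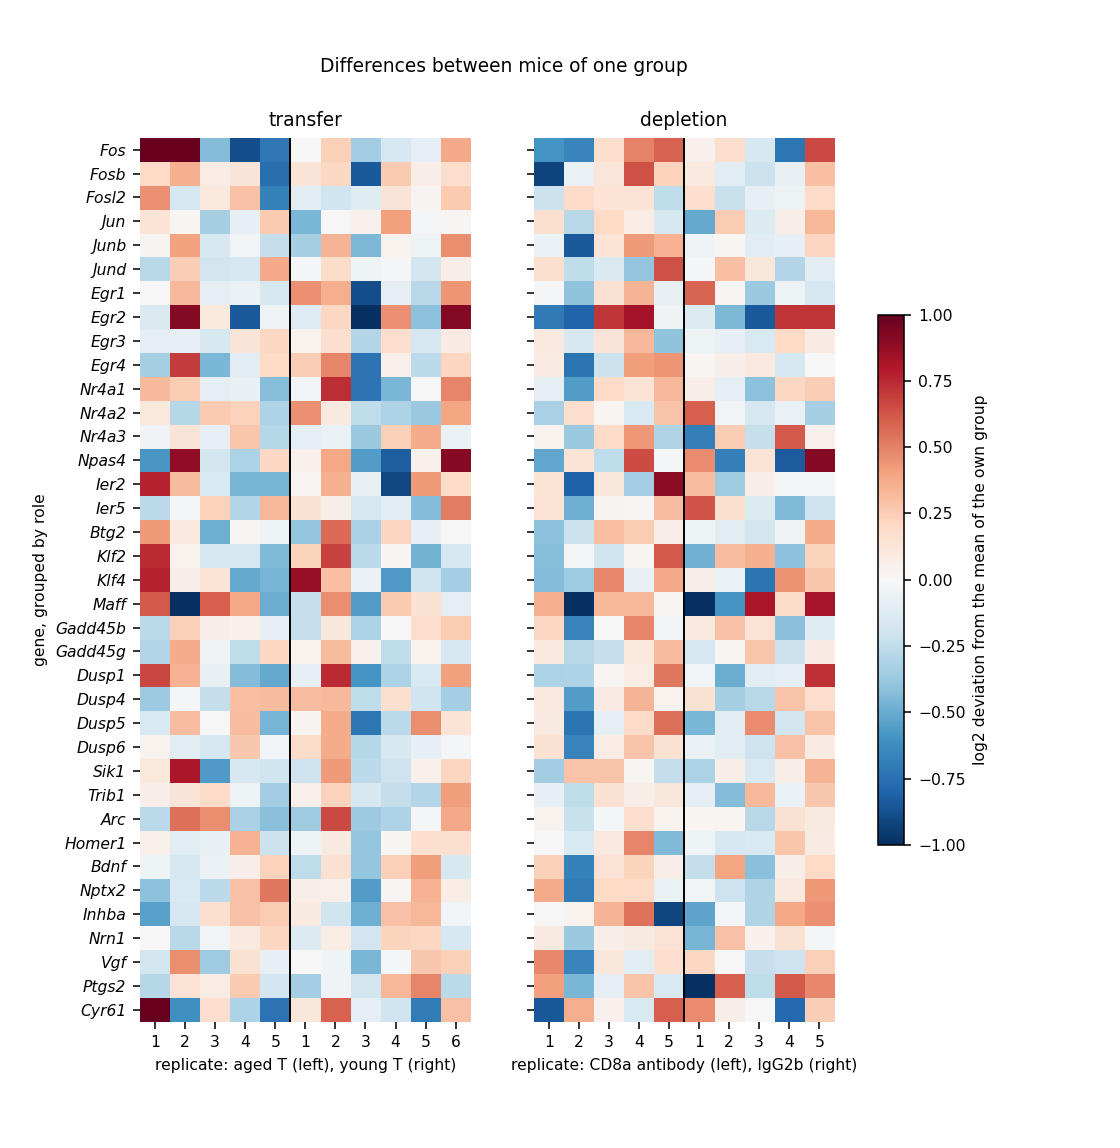
Log2 deviation of each of the 37 members from its own group mean in each library (red above, blue below, colours saturate at 1), transfer on the left and depletion on the right, with the black line between the groups. The columns of young T replicate 3 and CD8a antibody replicate 2 are blue for 35 and 31 of the 37 members, and the Fos row separates aged T replicates 1 and 2 from the other 3.

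Members were then set against Fos mouse by mouse, with the group means removed and exact p-values from all rearrangements within groups. The correlation with Fos was positive for 26 of the 36 other members over the 11 transfer libraries, with a median Pearson r of 0.27 against 0.0079 over 14161 genes. It was positive for 32 of 36 over the 10 depletion libraries, with a median of 0.37 against -0.013 over 13938 genes. The exact unadjusted p was under 0.05 for 8 members (22.2%) in the transfer, all positive, against 3.24% of all genes, and for 4 members (11.1%) in the depletion, all positive, against 7.15%. No member passed Benjamini-Hochberg adjustment over all genes in either experiment, by Pearson's r or Spearman's rho. No gene of the tables did so either. The smallest p the rearrangements can give is 1.16e-05 in the transfer and 6.94e-05 in the depletion, too large for a single gene to pass over all genes.

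Dusp1, the phosphatase that ends MAP kinase signalling, had the highest correlation with Fos of the members in the transfer, r = 0.82 (exact p = 0.000417, adjusted 0.738) and rho = 0.77 (exact p = 0.00514). Without the 2 mice with Fos farthest from the median, aged T replicates 1 and 2, r was 0.79 over 9 mice. A higher r was found for 0.0777% of all genes. In the depletion r for Dusp1 was 0.70 (exact p = 0.0351, adjusted 0.660) with rho = 0.66 (exact p = 0.0581), and r was 0.74 without IgG2b replicate 4 and antibody replicate 2. Sik1 and Ier2 were next in the transfer by r, with 0.75 (exact p = 0.0140, adjusted 0.9998) and 0.73 (exact p = 0.0132, adjusted 0.9998). Nr4a1 had r = 0.62 there (exact p = 0.000972, adjusted 0.9998; rho = 0.74, exact p = 0.00145; r = 0.63 without the same 2 mice) and 0.58 in the depletion (exact p = 0.110). Junb had the smallest p in the depletion, with r = 0.76 (exact p = 0.000694, adjusted 0.510), rho = 0.88 (exact p = 0.00104) and r = 0.81 without the same 2 mice. In the transfer Junb had r = 0.60 (exact p = 0.00580, adjusted 0.9998), rho = 0.61 (exact p = 0.0204) and r = 0.59 without the 2 mice.

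**Figure D5:**
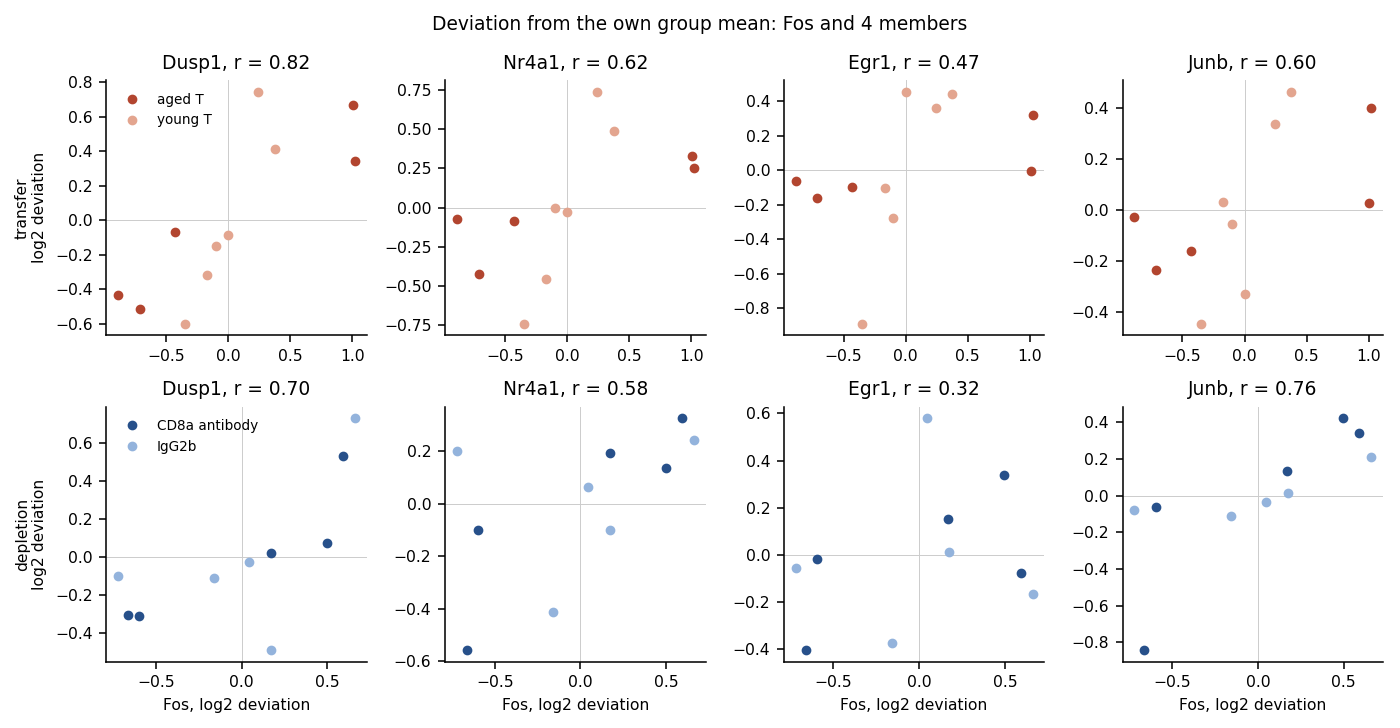
Log2 deviation from the own group mean of Dusp1, Nr4a1, Egr1 and Junb (vertical axes) against that of Fos (horizontal axes) in the 11 transfer libraries (top) and the 10 depletion libraries (bottom); each point is 1 mouse. Dusp1 has r of 0.82 and 0.70 and Junb 0.60 and 0.76, while Egr1 has 0.47 and 0.32.

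The number of members with an exact p under 0.05 ranged from 6 to 11 when each transfer library was left out. It ranged from 1 (without antibody replicate 4, and without IgG2b replicate 5) to 8 (without IgG2b replicate 4) in the depletion, so the depletion count rests on single mice. In the depletion, Dusp1 no longer had an exact p under 0.05 with 8 of the 10 libraries left out in turn, while Junb had one in all 10.

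Genes upstream of the members and other genes induced by activity were counted from lists chosen by function. Of 26 kinases, receptors and factors upstream, 20 had lower estimates in aged T recipients (median log2 difference -0.09), and none passed the adjusted threshold. At an unadjusted limma p under 0.05, which 8.25% of all genes reached, there were 2. One was Crebbp, the CREB coactivator (325 ± 52.9 counts in aged T mice and 410 ± 44.4 in young T mice, -0.35), and the other Rps6ka3, a kinase downstream of ERK (472 ± 31.4 and 558 ± 68.7, -0.23). The next smallest p belonged to Mkl2, a coactivator of SRF, with a log2 difference of -0.24 (SE 0.12). In the depletion 16 of the 26 were lower, with Rps6ka1 higher (245 ± 39.6 counts with the antibody and 188 ± 26.5 with IgG2b, 0.37) and Camk4, a calcium-activated kinase acting on CREB, lower (1407 ± 306 and 1837 ± 208, -0.41) at an unadjusted limma p under 0.05, which 8.47% of all genes reached. Mapk3, which encodes an ERK kinase, had a log2 difference of 0.20 (SE 0.13).

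Of 35 other activity-induced genes 34 were tested. In aged T recipients 20 were lower, and the single one at an unadjusted limma p under 0.05 was Rgs2, a regulator of G protein signalling (789 ± 168 counts in aged T mice and 617 ± 59.6 in young T mice, 0.34, adjusted p = 0.600). The next were Rheb, a GTPase that activates mTOR (0.14, SE 0.08), and the clock gene Per1 (-0.18, SE 0.12). With the CD8a antibody 24 of the 34 were lower (median log2 difference -0.07). All 6 at an unadjusted limma p under 0.05 were lower, where 8.47% of all genes reached that p and 4.15% were lower at it. Of these, 4 had groups that did not overlap, as did 1.27% of all genes in that direction and 286 of 13939 in either direction. None passed limma's adjusted threshold, and DESeq2, which called 0.501% of all genes, gave 2 of the 4 named here an adjusted p under 0.05. Syt4, a synaptotagmin of neuropeptide vesicles, averaged 1930 ± 253 counts with the antibody and 2740 ± 307 with IgG2b (-0.51, limma adjusted p = 0.233, DESeq2 adjusted p = 0.0127). Mest, an imprinted gene, averaged 166 ± 27.3 and 254 ± 48.8 (-0.61, DESeq2 adjusted p = 0.0453), and Pcsk1, the protease that processes proneuropeptides, 142 ± 13.8 and 202 ± 29.3 (-0.50, DESeq2 adjusted p = 0.0778). The fourth, Spry4, an inhibitor of receptor tyrosine kinase signalling, was named after its values were seen (163 ± 19.0 and 197 ± 16.1, -0.28, DESeq2 adjusted p = 0.480). The regional marker sums given beside Fosl2 moved with the same groups.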

How the data were processed

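RNA from 21 hippocampi was sequenced as strand-specific, polyA-enriched paired-end libraries, per the labels' protocols. STAR, RSEM and DESeq2 appear in the submitters' processing notes with no version, together with the mm10 build. How strand was used and which annotation was counted is not given in the sources used here. Junb, Dusp1 and Nrn1 overlap protein-coding genes on the other strand in GENCODE M21 (GRCm38), and Dusp1 also overlaps 2 annotated genes on its own strand, so their counts hold that uncertainty. The deposited tables, 1 per experiment, hold a normalized signal per library: per the file headers and the values, read counts per gene scaled by 1 size factor. The authors' deposited tables also give log2 fold changes, their scores and p-values, signed there as control over treated. Every value was a whole multiple of 1 step per library (100% within a relative tolerance of 1e-06), so reads were recovered for the count-based tests.

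The tables hold normalized counts and not raw counts, so differences were tested on the log2(normalized count + 1) scale with the trend option of limma (version 3.58.1, under R 4.3.3), over genes with a mean of at least 10, each experiment alone, with Benjamini-Hochberg adjustment over all genes tested. The added 1 shrinks the differences of low genes. The recovered reads went into DESeq2 1.42.0, the quasi-likelihood test of edgeR 4.0.16 and limma-voom. Correlations with Fos used log2 values with group means removed and every one of the 86400 (transfer) or 14400 (depletion) rearrangements within groups, two-sided, adjusted over all genes. This replaced a planned adjustment over the members alone with random resamples. All tests were checked on simulated data. Alternatives were pseudocounts of 0.5 and 5, no filter or a mean of at least 50, TMM and upper-quartile scaling, the other tools, leaving out each library, and a regional marker covariate. Intervals and limits from read numbers cover counting error only. Within groups all pairs of libraries differed by more than counting noise, and the labels do not say that samples were separate litters or cages, so p-values measure the spread between these samples.

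The members and lists were chosen with earlier results of these data known. Always named were Fos, Egr1, Arc, Npas4, Nr4a1, Junb and Bdnf, with the 6 members and 3 genes per pathway list with the smallest limma p in each experiment; the rest are named where a count or extreme of the members points to them. Marker lists of 16 cell types and regions (4 to 7 genes, regions 3) were summed. Promoter windows came from RefSeq tables of GRCm38.p6 and were matched by symbol for 26 members.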

Additional observations from a re-analysis of the deposited data

Results flagged for a closer look

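In groups of 5 or 6 mice, 8 of the 148 gene and group sets of the members held 1 mouse whose gap to the nearest other exceeded Dixon's critical value, where chance gives about 1 in 20, or 7 sets. CD8a antibody replicate 2 was the low mouse in 3 of them. It had 427 normalized counts of Dusp6, a phosphatase of ERK (716 or above in the other 4 mice), 469 of Bdnf (783 to 886) and 2431 of Nrn1, a neuritogenic surface protein (3274 to 3476). IgG2b replicate 5 was the high mouse for Dusp1 (561, others 240 to 331) and Btg2 (330, others 223 to 248). IgG2b replicate 1 was high for Nr4a2 (1115, others 584 to 720). Aged T replicate 1 was high for Cyr61, a matricellular protein gene (397, others 83.3 to 158), and young T replicate 3 was low for Fosb (79.1, others 149 to 171). The library-wide position of antibody replicate 2 and young T replicate 3 for the other members is given in the results, and no cause was tested.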

How the results depend on the processing

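The absence of called members held under every alternative in the transfer. In the depletion DESeq2 called 1 member, Fosl2 (2 without antibody replicate 2), and the limma, edgeR and voom alternatives 0. Genes called in the depletion numbered 1 in the main test, 0 without a filter on low values, 91 with DESeq2, 0 with the regional covariate and 0 to 25 with each library left out (25 without antibody replicate 5, 2 without antibody replicate 2). Members past the adjusted threshold for correlation with Fos numbered 0 in each experiment and alternative, where a single gene cannot pass, so this 0 says nothing about stability. Apart from leave-one-out, 365 of 367 member estimates kept their direction in the transfer. Sik1 turned to 0.0068 with edgeR and 0.0037 with DESeq2. In the depletion 354 of 367 kept it, and the 13 that turned did so with the regional covariate: Egr3 -0.069, Arc -0.0029, Npas4 0.32, Nr4a1 -0.045, Nr4a2 0.036, Ier2 -0.10, Dusp4 -0.014, Dusp6 -0.24, Bdnf -0.16, Nptx2 -0.16, Sik1 0.0016, Ptgs2 -0.23 and Nrn1 -0.11. Leaving out 1 library turned 46 of 407 transfer estimates, over 15 members with ranges of Jun -0.18 to 0.00046, Junb -0.056 to 0.14, Egr2 -0.38 to 0.0598, Egr4 -0.12 to 0.17, Arc -0.14 to 0.13, Npas4 -0.19 to 0.21, Ier2 -0.26 to 0.049, Ier5 -0.041 to 0.15, Dusp5 -0.041 to 0.22, Bdnf -0.11 to 0.054, Sik1 -0.26 to 0.086, Ptgs2 -0.086 to 0.0805, Trib1 -0.073 to 0.071, Nrn1 -0.018 to 0.11, Vgf -0.15 to 0.0597. It turned 20 of 370 depletion estimates, over 9 members with ranges of Junb -0.24 to 0.074, Jund -0.066 to 0.19, Egr2 -0.30 to 0.11, Npas4 -0.33 to 0.11, Nr4a3 -0.22 to 0.10, Ier2 -0.17 to 0.25, Gadd45b -0.19 to 0.099, Ptgs2 -0.053 to 0.46, Trib1 -0.14 to 0.046. The cause was not tested. Counting error weighs most on the members with the lowest counts, Maff, Inhba and Egr2. No paired analysis was possible because the groups compared share no sample numbers in the labels.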

Other observations

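Set side by side without shared samples, 14 of the 37 members had lower estimates both in aged T against young T recipients and in CD8a antibody against IgG2b mice, 5 had higher estimates in both, and 18 had opposite signs (48.6%, against 41.0% of 13864 genes tested in both experiments). Across the members the 2 sets of log2 differences had a Pearson correlation of -0.096 and a Spearman correlation of -0.084, against 0.11 and 0.20 over all genes, which are not independent replicates.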
